A study of Homo sapiens with 24 samples.

Results

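The YAP/TAZ target genes described here are 10 genes of the Hippo pathway or under its control: CCN1, CCN2, ANKRD1, AMOTL1, AMOTL2, AJUBA, LATS2, YAP1, AXL and TEAD1. CCN1 and CCN2 were formerly called CYR61 and CTGF. A probe belongs to a gene when the RefSeq transcript in its annotation is one of that gene's. By that rule 11 probes were found, 2 for AMOTL1 and 1 for each other gene, and the 10 genes are 10 of 24643 genes tested. All 11 probes were well above background on all 24 arrays and none was saturated, so no gene of the 10 passed the filter only through a condition in which it was high.

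RNA of HepaRG cells, a human liver line with the properties of a bipotent hepatic progenitor, was measured on 24 one-colour Agilent arrays, 3 for each of 8 conditions. Mouse recombinant Wnt3a was given at 200 ng/ml and mouse FZD8_CRD, a soluble piece of the receptor Frizzled 8 that binds Wnt ligands, at 300 ng/ml, for 72 h in serum-free medium. The 8 conditions were untreated cells, cells with control siRNA, cells with CTNNB1 siRNA and cells with FZD8_CRD, each without and with Wnt3a. The siRNA groups were electroporated in suspension with 80 pmol siRNA, while the untreated, Wnt3a and FZD8_CRD groups were not electroporated, so that the CTNNB1 siRNA is compared with the control siRNA. A single siRNA against CTNNB1 and a single cell line were used. The number of arrays limits the precision of every value. P-values set a difference against the spread between replicate arrays of these samples, estimated over all 8 conditions.

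YAP1 and its paralogue TAZ (gene WWTR1) are transcriptional co-activators that bind DNA through the TEAD factors. The Hippo kinases, LATS2 among them, phosphorylate YAP and TAZ and keep them out of the nucleus, and several target genes (the angiomotins, LATS2 and AJUBA) act back on that step. In liver the pathway is known for its control of organ size and of the hepatocyte and biliary fates, and β-catenin, the product of CTNNB1, is the central transducer of canonical Wnt signals.

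Signals are given as the log2 of the intensity divided by the 75th percentile of the array, so that 0 is the 75th percentile and 1 unit is a doubling. CTNNB1 read 3.35, 3.39 and 3.52 on the arrays with control siRNA (replicates 1, 2 and 3) and 0.26, 0.36 and 0.52 with CTNNB1 siRNA. With Wnt3a it read 3.39, 3.62 and 3.70 with control siRNA and 0.33, 0.53 and 0.79 with CTNNB1 siRNA. The 6 arrays with CTNNB1 siRNA reached at most 0.79 and the other 18 arrays at least 3.23, so the label of the knockdown holds on every array. The log2 fold change was -3.04 without Wnt3a (limma, adjusted p = 1.46e-09) and -3.02 with it (adjusted p = 9.64e-10).

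The cells carried the markers of a liver line. All 9 hepatocyte markers and 4 of the 5 biliary markers were well above background on all 24 arrays (EPCAM did not pass the filter), as were 5 of the 7 mesenchymal markers. The 5 blood and endothelial markers searched (PTPRC, CD68, PECAM1, VWF and CDH5) were also well above background on all 24 arrays, so presence alone does not separate cell types here. Their mean signal lay between -3.29 (FZD8_CRD) and -2.79 (Wnt3a), below that of the hepatocyte markers in every condition. The mean signal of the hepatocyte markers was 4.63 in untreated cells, 3.85 with Wnt3a, 2.99 with control siRNA, 2.36 with control siRNA and Wnt3a, 3.52 with CTNNB1 siRNA, 2.94 with CTNNB1 siRNA and Wnt3a, 2.42 with FZD8_CRD and 2.82 with FZD8_CRD and Wnt3a. That of the 5 mesenchymal markers was 0.86, 1.84, 0.36, 1.23, -0.34, -0.16, 0.26 and 0.96 in the same order. In such bulk RNA, fewer cells of a type and less RNA per cell cannot be told apart, and the part of either marker list in the results on the 10 genes was not tested.

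Some arrays stood apart from their condition. After each gene was centred over all arrays, the third FZD8_CRD array correlated at 0.15 with the other arrays of its own condition and at 0.67 with FZD8_CRD and Wnt3a, across genes, which are not independent. Of the 24 arrays, 5 were closer to another condition than to their own: that one, the 3 Wnt3a arrays and the third array with CTNNB1 siRNA and Wnt3a. The counts of called genes in the comparisons that use the third FZD8_CRD array are given below with and without it, a choice made after the data were seen. A joint setting, also chosen then, leaves out that array and takes the replicate number as a block, and in comparisons that do not use the array it leaves the log2 fold changes as they are. The replicate number is also the number of the slide, and each slide held all 8 conditions, so that every comparison can be read within a slide.

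The scale also matters. When the arrays were scaled by their spike-in RNAs instead of the 75th percentile, the median log2 fold change over all genes moved from between -0.082 and 0.033 to -0.378 for Wnt3a without transfection, 0.182 for Wnt3a after control siRNA, -0.099 for Wnt3a after CTNNB1 siRNA, -0.067 for Wnt3a with FZD8_CRD, -0.315 for control siRNA, 0.248 for control siRNA with Wnt3a, 0.057 for CTNNB1 siRNA, -0.212 for CTNNB1 siRNA with Wnt3a, -0.466 for FZD8_CRD and -0.158 for FZD8_CRD with Wnt3a, and to 0.56, -0.278 and 0.31 for the differences between responses (control siRNA minus no transfection, CTNNB1 siRNA minus control siRNA, and FZD8_CRD minus no transfection). Of the 27 calls on the 10 genes, 2 were then kept: CCN2 after control siRNA and ANKRD1 after CTNNB1 siRNA without Wnt3a. CCN2 with FZD8_CRD was added, at -1.03 (limma, adjusted p = 0.0241). The differences below are therefore differences relative to the bulk of the genes on each array.

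Promoters are shown for the genes that rose after CTNNB1 siRNA and for AMOTL2, the gene with the largest called fall in any Wnt3a comparison. They come from a set of RefSeq promoters (GRCh38.p14). The set held 11 promoters of 250 bases before to 50 bases after the start for 8 of the 10 genes. CCN1 and TEAD1 were missing from this set, which does not mean that RefSeq lacks them. Capitals mark the letters GGAATG, the core of the TEAD motif, or CATTCC, the same letters on the other strand. For AJUBA, AXL and AMOTL2 the set also held another promoter each, without such a match, which is not shown. All 5 promoters shown therefore hold a match by choice, and which start the measured transcripts use was not tested. The 5 promoters lie at chr6:131951323-131951622 (minus strand, CCN2), chr10:90921038-90921337 (minus strand, ANKRD1), chr14:22976793-22977092 (minus strand, AJUBA), chr19:41226505-41226804 (plus strand, AXL) and chr3:134374398-134374697 (minus strand, AMOTL2).
CCN2 promoter: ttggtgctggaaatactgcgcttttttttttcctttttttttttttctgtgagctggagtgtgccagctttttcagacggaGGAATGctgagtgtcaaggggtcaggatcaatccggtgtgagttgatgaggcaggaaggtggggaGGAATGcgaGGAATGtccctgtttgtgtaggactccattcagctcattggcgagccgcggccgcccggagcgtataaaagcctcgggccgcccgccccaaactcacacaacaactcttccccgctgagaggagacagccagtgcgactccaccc
ANKRD1 promoter: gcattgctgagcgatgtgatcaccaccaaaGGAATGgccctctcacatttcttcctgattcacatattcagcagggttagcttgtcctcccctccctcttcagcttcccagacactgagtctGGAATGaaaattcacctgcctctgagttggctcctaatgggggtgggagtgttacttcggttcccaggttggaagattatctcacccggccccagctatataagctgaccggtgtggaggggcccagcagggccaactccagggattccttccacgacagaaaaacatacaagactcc
AJUBA promoter: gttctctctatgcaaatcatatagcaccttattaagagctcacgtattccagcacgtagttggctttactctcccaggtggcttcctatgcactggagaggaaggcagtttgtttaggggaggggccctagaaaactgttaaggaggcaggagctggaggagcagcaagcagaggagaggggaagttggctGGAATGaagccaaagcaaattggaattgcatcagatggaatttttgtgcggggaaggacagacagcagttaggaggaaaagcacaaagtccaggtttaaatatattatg
AXL promoter: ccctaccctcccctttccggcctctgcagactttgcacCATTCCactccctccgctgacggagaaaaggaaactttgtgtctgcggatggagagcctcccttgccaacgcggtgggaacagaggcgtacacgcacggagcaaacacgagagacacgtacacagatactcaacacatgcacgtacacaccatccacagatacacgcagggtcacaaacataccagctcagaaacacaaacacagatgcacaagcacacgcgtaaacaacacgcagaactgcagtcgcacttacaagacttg
AMOTL2 promoter: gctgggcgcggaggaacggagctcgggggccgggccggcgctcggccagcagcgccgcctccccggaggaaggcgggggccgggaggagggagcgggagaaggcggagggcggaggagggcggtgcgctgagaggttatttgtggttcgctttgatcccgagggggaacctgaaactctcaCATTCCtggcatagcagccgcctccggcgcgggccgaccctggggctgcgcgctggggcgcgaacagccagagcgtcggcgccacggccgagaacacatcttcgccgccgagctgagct

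The CCN2 promoter held 3 matches, at -169, -104 and -95 from the start, and that of ANKRD1 held 2, at -220 and -128. Single matches were found in AJUBA (-59), AXL (-212, other strand), AMOTL2 (-69, other strand), YAP1 (-162, chr11:102110197-102110496, plus strand) and LATS2 (10, chr13:21061537-21061836, minus strand). In all, 7 of the 11 promoters, of 7 genes, held a match, and the other promoters of AMOTL2, AJUBA and AXL and the one of AMOTL1 held none. Of all 35116 promoters in the set, 14.0% held at least 1 match, 1.37% at least 2 and 0.128% at least 3. The letters CTTTGAT or ATCAAAG, the core of the TCF/LEF motif, stood in the AMOTL2 promoter alone among the 11, at -101, and in 2.62% of all promoters. The letters TGANTCA, the AP-1 motif, which reads the same on both strands, stood in that of ANKRD1 alone, at -195, and in 7.71% of all promoters. A match describes the letters of this window and is not evidence of binding.

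**Figure D1:**
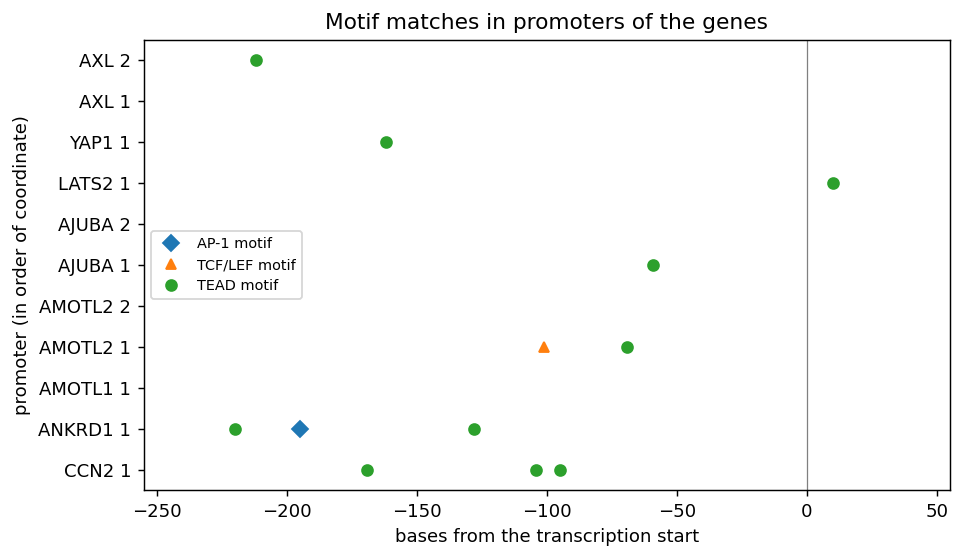
Position of each motif match, in bases from the transcription start, in the 11 promoters found for 8 of the genes (vertical axis, numbered in order of coordinate where a gene has more than 1). CCN2 has 3 TEAD matches between -169 and -95, and 4 promoters have no match of any kind.

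CCN1 encodes a secreted matricellular protein that binds integrins. Untreated cells read 5.63, 5.50 and 5.15 and cells with Wnt3a 6.01, 6.74 and 6.0, while cells with control siRNA read 5.79, 5.89 and 5.63 and those with control siRNA and Wnt3a 6.33, 6.52 and 6.34. With CTNNB1 siRNA the arrays read 6.06, 6.0 and 6.05, and 6.34, 6.28 and 6.09 with Wnt3a. With FZD8_CRD they read 6.07, 6.14 and 6.47, and 6.79, 6.72 and 6.66 with Wnt3a. All untreated arrays were lower than every array with Wnt3a, and the highest arrays of all were those with FZD8_CRD and Wnt3a and the second with Wnt3a alone. The means fell in the order FZD8_CRD and Wnt3a (6.72), control siRNA and Wnt3a (6.40), Wnt3a (6.25), CTNNB1 siRNA and Wnt3a (6.24), FZD8_CRD (6.23), CTNNB1 siRNA (6.03), control siRNA (5.77) and untreated (5.43). Of the 7 neighbouring pairs in that order, 3 overlapped, all of them between control siRNA with Wnt3a and FZD8_CRD.

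CCN2, a second matricellular protein and a widely used readout of YAP activity, varied most within untreated cells, which read 2.40, 1.68 and 0.59. With Wnt3a the arrays read 0.87, 0.86 and 1.27, with control siRNA 0.10, 0.23 and 0.02, and with control siRNA and Wnt3a 0.25, 0.84 and 0.51. With CTNNB1 siRNA they read 1.28, 1.10 and 1.33, with CTNNB1 siRNA and Wnt3a 1.04, 1.14 and 1.00, with FZD8_CRD 0.90, 0.85 and 1.01, and with FZD8_CRD and Wnt3a 1.03, 1.04 and 1.13. The control siRNA arrays were the lowest, and none of them reached an array with CTNNB1 siRNA. From highest to lowest the means were untreated (1.56), CTNNB1 siRNA (1.24), FZD8_CRD and Wnt3a (1.07), CTNNB1 siRNA and Wnt3a (1.06), Wnt3a (1.00), FZD8_CRD (0.92), control siRNA and Wnt3a (0.53) and control siRNA (0.12). The first 5 of the 7 neighbouring pairs overlapped.

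ANKRD1, an ankyrin repeat protein of muscle and stressed epithelia, had its highest arrays with CTNNB1 siRNA or FZD8_CRD. Untreated cells read 1.14, 0.75 and 0.18, cells with Wnt3a 0.49, 0.72 and 0.63, those with control siRNA 0.41, 0.42 and 0.35, and those with control siRNA and Wnt3a 0.29, 0.39 and 0.08. With CTNNB1 siRNA the arrays read 1.80, 1.49 and 1.62, with CTNNB1 siRNA and Wnt3a 1.59, 1.16 and 1.16, with FZD8_CRD 1.71, 1.75 and 1.31, and with FZD8_CRD and Wnt3a 1.30, 1.28 and 1.04. Every array with CTNNB1 siRNA lay above every array with control siRNA, while the first untreated array reached into the range of FZD8_CRD and Wnt3a. In order, the means were 1.63 (CTNNB1 siRNA), 1.59 (FZD8_CRD), 1.30 (CTNNB1 siRNA and Wnt3a), 1.21 (FZD8_CRD and Wnt3a), 0.69 (untreated), 0.62 (Wnt3a), 0.39 (control siRNA) and 0.25 (control siRNA and Wnt3a). Of the 7 neighbouring pairs 6 overlapped, and the gap lay between Wnt3a and control siRNA.

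Among the feedback genes, AMOTL2, an angiomotin that binds YAP, fell on the arrays with FZD8_CRD and Wnt3a. These read 3.97, 4.16 and 3.94, against 5.00, 5.00 and 4.16 with FZD8_CRD alone and 4.86, 4.82 and 4.80 with Wnt3a alone. Untreated cells read 4.95, 5.07 and 4.77, and the arrays with siRNA lay between 4.40 (the third with control siRNA and Wnt3a) and 5.14 (the first with CTNNB1 siRNA). The third FZD8_CRD array was thus as low as an array with FZD8_CRD and Wnt3a, while the other two were level with untreated cells. The order of the means was CTNNB1 siRNA (5.10), untreated (4.93), Wnt3a (4.83), CTNNB1 siRNA and Wnt3a (4.80), control siRNA (4.78), FZD8_CRD (4.72), control siRNA and Wnt3a (4.54) and FZD8_CRD and Wnt3a (4.02), with 6 of 7 neighbouring pairs overlapping and the last not.

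AJUBA, a LIM protein that binds the LATS kinases, had condition means between 3.37 (Wnt3a) and 3.83 (CTNNB1 siRNA). The order from the top was CTNNB1 siRNA, FZD8_CRD (3.75), CTNNB1 siRNA and Wnt3a (3.66), FZD8_CRD and Wnt3a (3.50), control siRNA (3.46), untreated (3.44), control siRNA and Wnt3a (3.39) and Wnt3a. All neighbours overlapped but CTNNB1 siRNA with Wnt3a and FZD8_CRD with Wnt3a. LATS2, the kinase, had means from 0.05 (control siRNA and Wnt3a) to 0.35 (untreated), with CTNNB1 siRNA (0.28), Wnt3a (0.25), FZD8_CRD (0.20), CTNNB1 siRNA and Wnt3a (0.13), control siRNA (0.13) and FZD8_CRD and Wnt3a (0.11) between them, and all 7 neighbouring pairs overlapped. AMOTL1, the other angiomotin of the set, had means between -2.09 (control siRNA) and -1.34 (FZD8_CRD and Wnt3a), with CTNNB1 siRNA and Wnt3a (-1.42), Wnt3a (-1.42), control siRNA and Wnt3a (-1.52), CTNNB1 siRNA (-1.67), FZD8_CRD (-1.75) and untreated cells (-1.90) between them. Again all 7 pairs overlapped, with arrays from -2.68 to -0.62. The second array of AMOTL1 was the lowest in every condition, so its ranges include a difference between slides. Within slides 1, 2 and 3 Wnt3a changed it by 0.42, 0.88 and 0.13 without transfection and by 0.73, 0.51 and 0.44 after control siRNA. After CTNNB1 siRNA the slides gave 0.89, 0.21 and -0.34, and with FZD8_CRD 0.61, 0.79 and -0.15. Neither LATS2 nor AMOTL1 was called in any of the 13 comparisons of the fit to all arrays. The dimmer AMOTL1 probe, which does not stand for the gene, gave a log2 fold change of 0.88 for FZD8_CRD with Wnt3a (adjusted p = 0.0175 in the fit of single probes), where the brighter gave 0.08.

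The receptor tyrosine kinase AXL, which binds GAS6, was lowest without transfection or FZD8_CRD. Untreated cells read 2.67, 2.72 and 2.63 and cells with Wnt3a 2.71, 3.14 and 2.62, against 3.40, 3.38 and 3.32 with control siRNA and 3.34, 3.55 and 3.45 with control siRNA and Wnt3a. With CTNNB1 siRNA the arrays read 3.69, 3.85 and 3.66, and 4.06, 3.81 and 3.75 with Wnt3a. With FZD8_CRD they read 3.62, 3.69 and 3.45, and 3.24, 3.25 and 3.10 with Wnt3a. No transfected array was as low as any untreated array, and no array with CTNNB1 siRNA was as low as one with control siRNA. The means ran from CTNNB1 siRNA and Wnt3a (3.87) through CTNNB1 siRNA (3.73), FZD8_CRD (3.59), control siRNA and Wnt3a (3.45), control siRNA (3.37), FZD8_CRD and Wnt3a (3.20) and Wnt3a (2.82) to untreated (2.68). Of the 7 neighbouring pairs, 6 overlapped, and control siRNA did not overlap FZD8_CRD and Wnt3a.

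Of the effectors themselves, YAP1 had its lowest mean in untreated cells, with arrays at 1.64, 1.68 and 1.66, and its highest with FZD8_CRD, with arrays at 2.25, 2.36 and 2.35. Single arrays of other conditions lay beyond these, up to 2.40 (the second with FZD8_CRD and Wnt3a), and the third Wnt3a array read 1.66. The other means were 2.25 (FZD8_CRD and Wnt3a), 2.22 (CTNNB1 siRNA and Wnt3a), 2.08 (control siRNA and Wnt3a), 2.07 (CTNNB1 siRNA), 1.93 (control siRNA) and 1.88 (Wnt3a), between 2.32 for FZD8_CRD and 1.66 for untreated cells, and all 7 neighbouring pairs overlapped. TEAD1, the DNA-binding partner, was lowest in both conditions with CTNNB1 siRNA, with means of 2.73 and, with Wnt3a, 2.71. The rest lay at 3.21 (FZD8_CRD), 3.13 (control siRNA), 3.12 (Wnt3a), 3.09 (control siRNA and Wnt3a), 3.01 (untreated) and 2.95 (FZD8_CRD and Wnt3a). Its highest array with CTNNB1 siRNA, 2.82, was below the lowest array of any condition without it, 2.85, and 5 of the 7 neighbouring pairs overlapped.

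**Figure D2:**
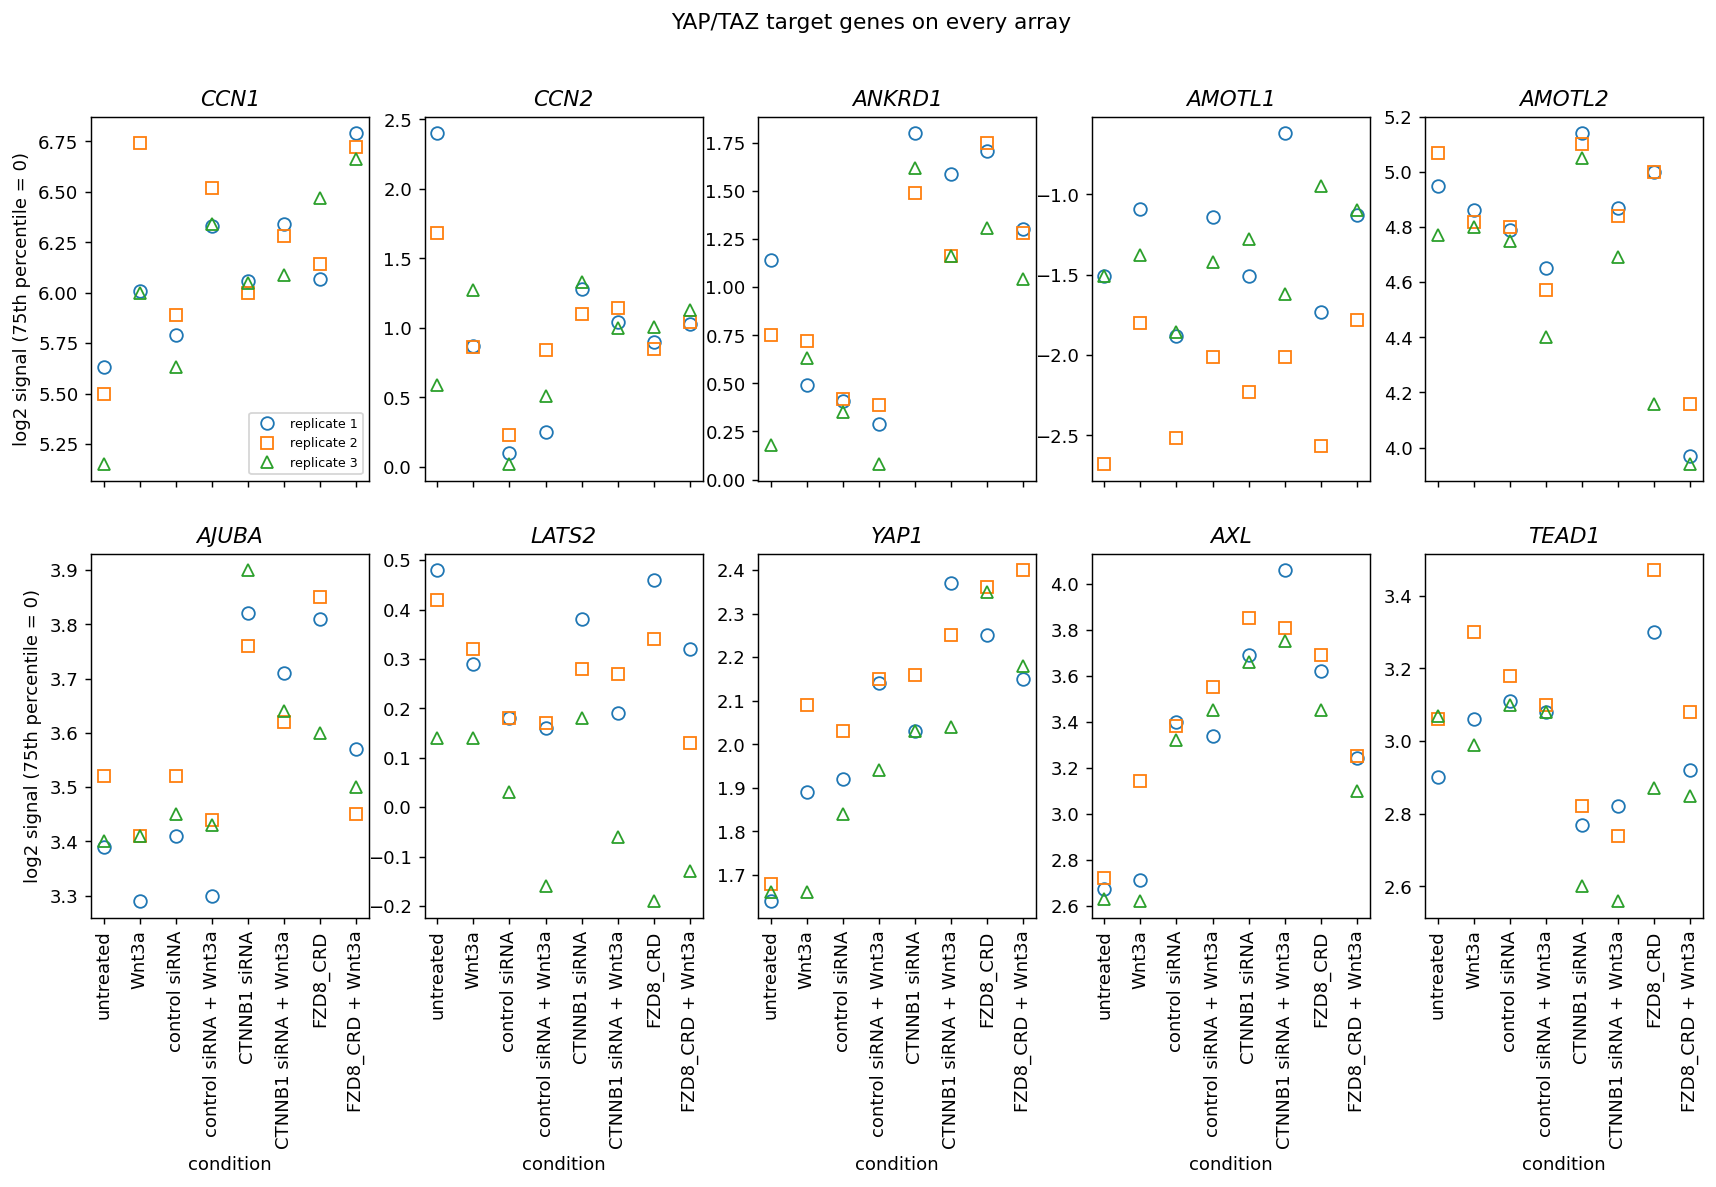
Signal of each gene on a log2 scale with the 75th percentile at 0 (vertical axis, a scale for each gene) in the 8 conditions, with a marker for each replicate, which is also the slide. ANKRD1 is at 1.16 or above on all arrays with CTNNB1 siRNA and at 0.42 or below on all with control siRNA.

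Wnt3a without transfection asks what the ligand does to these genes in unmanipulated cells. CCN1 rose, by 0.82 ± 0.16 (standard error, 3 arrays a condition, limma, adjusted p = 0.00628), and it was the only gene of the 10 called, where 5.42% of all 24643 genes were called. The difference of CCN1 was 0.38, 1.23 and 0.84 on slides 1, 2 and 3. The median of the 10 log2 fold changes was 0.02, as was that of all genes, 0.022. Without the third untreated array, CCN2 was called lower, at -1.04 (adjusted p = 0.00179, with that array -0.56 and 0.233). Without the third Wnt3a array YAP1 was called higher, at 0.33 (adjusted p = 0.036, with it 0.22 and 0.21). With each single array left out in turn, CCN2 lay between -1.04 and -0.14 and YAP1 between 0.11 and 0.33 (limma, adjusted p up to 0.861 and 0.761). Over the fits without an array or a replicate number, 0.069 to 25.4% of all genes were called, and the share in each fit is not given. The joint setting called YAP1 as well (0.22, adjusted p = 0.0428), and 17.2% of all genes. With spike-in scaling CCN1 was at 0.41 (adjusted p = 0.338). Of the 5 mesenchymal markers well above background on all arrays, 4 rose (median 0.94), 2 of them lost without some single array (adjusted p up to 0.146), and no hepatocyte marker was called (median -0.70).

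After control siRNA, Wnt3a raised CCN1 again, by 0.63 ± 0.16 (limma, adjusted p = 0.041), with slide values of 0.54, 0.63 and 0.71. This was 1 of 10 genes against 2.02% of all genes, and the call was lost without any 1 of the 6 arrays, with adjusted p between 0.0686 and 0.193. In the joint setting, which called 8.94% of all genes, AMOTL1 (0.56, adjusted p = 0.0454) was higher and AMOTL2 (-0.24, 0.0119) lower as well. After CTNNB1 siRNA, Wnt3a changed none of the 10 at an adjusted p under 0.05, with 1 (AJUBA) at an unadjusted p under 0.05, where limma called 0.0406% of all genes (10 genes, and 2585 at an unadjusted p under 0.05). AMOTL2 alone was called there in the joint setting (-0.30, adjusted p = 0.0112), and 2.18% of all genes. The medians of the 10 genes were 0.02 and -0.09, against 0.027 and 0.033 for all genes. The response of CCN1 itself was not shown to differ: limma called none of the 10 genes for the response after control siRNA minus that without transfection (0% of all genes, 1180 of them at an unadjusted p under 0.05, CCN2 among them) or after CTNNB1 siRNA minus control siRNA (0.0162%, 4 genes, and none of the 10 at an unadjusted p under 0.05).

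With FZD8_CRD present, Wnt3a lowered 3 of the 10 genes, AMOTL2, AXL and AJUBA, and 8.24% of all genes were called. AMOTL2 fell by 0.70 ± 0.15 on the log2 scale (limma, adjusted p = 0.00697), although the groups overlapped, AXL fell by 0.39 ± 0.11 (adjusted p = 0.0302) and AJUBA fell by 0.25 ± 0.07 (adjusted p = 0.0292). On slides 1, 2 and 3 AMOTL2 differed by -1.03, -0.84 and -0.22, AXL by -0.38, -0.44 and -0.35 and AJUBA by -0.25, -0.40 and -0.09. The call of AMOTL2 was lost without the first or the second FZD8_CRD array (adjusted p = 0.076 and 0.0743), and those of AJUBA and AXL without any array but the third FZD8_CRD array (adjusted p up to 0.201 and 0.185). CCN1, at 0.49 (adjusted p = 0.0562), was called with the replicate number as a block (adjusted p = 0.0336). The median of the 10 was -0.17, against 0.025 for all genes (-0.31 and 0.027 without the third FZD8_CRD array).

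Without the third FZD8_CRD array 5 of the 10 were called, and 19.9% of all genes. AMOTL2 then fell by 0.98, AXL by 0.46 and AJUBA by 0.33, CCN1 was higher by 0.61 (limma, adjusted p = 0.0127) and TEAD1 lower, at -0.44 (adjusted p = 0.00305, with the array -0.26 and 0.196). With the replicate number as a block as well, 8 were called, and 27.2% of all genes, with AMOTL1 higher, at 0.73 (adjusted p = 0.00798), and LATS2 (-0.21, 0.0374) and ANKRD1 (-0.45, 0.0498) lower. The difference between the response with FZD8_CRD and the response without it was called for none of the 10 (0.073% of all genes, 18 genes, and 3110 at an unadjusted p under 0.05 in limma, AMOTL2, AXL and TEAD1 among them). Without that array it was called for 3, where 7.77% of all genes were: AMOTL2 at -0.88 (adjusted p = 0.0001), AXL at -0.61 (adjusted p = 0.0234) and TEAD1 at -0.55 (adjusted p = 0.0136). Without the third untreated array, CCN2 was called for the same difference, at 1.18 (adjusted p = 0.0183, with it 0.70 and 0.466). With each single array left out in turn, the difference of CCN2 lay between 0.28 and 1.18 (limma, adjusted p up to 0.887). That of AMOTL2 lay between -0.88 and -0.45, of AXL between -0.64 and -0.38 and of TEAD1 between -0.55 and -0.24 (adjusted p up to 0.587, 0.445 and 0.764). Over the fits without an array or a replicate number, 0 to 11.8% of all genes were called for this difference. With FZD8_CRD present, Wnt3a raised 2 hepatocyte markers and lowered 1 (median 0.10), and raised 2 of the 5 mesenchymal markers (median 0.62), with 2 of the former calls and 1 of the latter lost without some single array (adjusted p up to 0.268). When the third FZD8_CRD array was left out, the counts were 3 higher and 2 lower for the hepatocyte markers (median 0.23), and 2 and 1 for the mesenchymal markers.

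**Figure D3:**
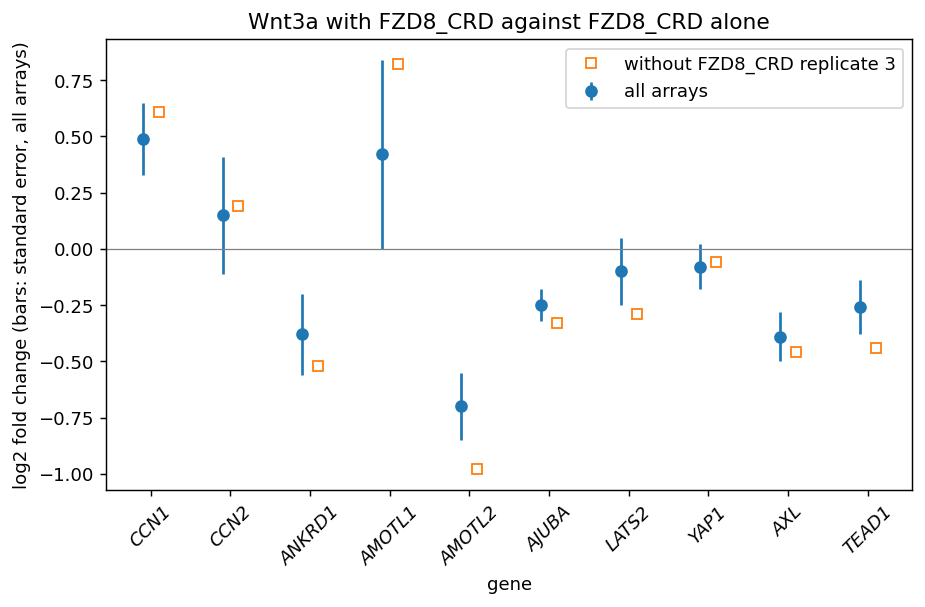
Log2 fold change of Wnt3a with FZD8_CRD against FZD8_CRD alone (vertical axis) for each gene, with all arrays (filled, bars of 1 standard error) and without the third FZD8_CRD array (open). AMOTL2 moves from -0.70 to -0.98 and TEAD1 from -0.26 to -0.44.

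With knockdown of CTNNB1, set against control siRNA, 5 of the 10 were called, where 10.5% of all genes were: ANKRD1, CCN2, AXL and AJUBA rose and TEAD1 fell. ANKRD1 rose by 1.24 ± 0.18 (2.36 times, limma, adjusted p = 0.00014) and CCN2 by 1.12 ± 0.26 (2.17 times, adjusted p = 0.00897), with slide values of 1.39, 1.06 and 1.27 for the former and 1.18, 0.87 and 1.31 for the latter. AJUBA rose by 0.36 ± 0.07 (adjusted p = 0.00155) and AXL by 0.37 ± 0.11 (adjusted p = 0.0361), and TEAD1 fell by 0.40 ± 0.12 (adjusted p = 0.0335). The groups did not overlap for any of the 5, and all 3 slides gave the same sign. As these 5 were picked by their adjusted p, this adds no support to the calls. The share of all genes that separate in this way was not counted. The median of the 10 was 0.34, against -0.033 for all genes. The call of AXL was lost without any 1 of the 6 arrays (adjusted p up to 0.148) and that of TEAD1 without any but the second CTNNB1 siRNA array (adjusted p up to 0.163). The joint setting added AMOTL2, at 0.32 (adjusted p = 0.00061), and called 20.8% of all genes. Of the 5 mesenchymal markers, 3 fell (median -0.87), and no hepatocyte marker was called (median 0.65).

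In the presence of Wnt3a, 4 of the same 5 were called, and 10.6% of all genes. ANKRD1 rose by 1.05 ± 0.18 (limma, adjusted p = 0.000513), AXL by 0.43 ± 0.11 (adjusted p = 0.0132) and AJUBA by 0.27 ± 0.07 (adjusted p = 0.0143), and TEAD1 fell by 0.38 ± 0.12 (adjusted p = 0.0414). CCN2, not called, had means of 1.06 and 0.53 in the conditions compared. The median of the 10 was 0.20, against -0.017. AJUBA and AXL were lost without the first array with control siRNA and Wnt3a (adjusted p = 0.0805 and 0.069) or the first with CTNNB1 siRNA and Wnt3a (adjusted p = 0.0605 and 0.081), and TEAD1 without any array but that last one (adjusted p up to 0.184). The joint setting added AMOTL2 here too (0.26, adjusted p = 0.00286), and called 19.4% of all genes. With spike-in scaling AJUBA was at 0.07 (adjusted p = 0.942), AXL at 0.23 (0.815) and TEAD1 at -0.58 (0.454). All 5 mesenchymal markers fell (median -1.47), and 1 hepatocyte marker rose (median 0.47, lost without some single array, adjusted p up to 0.106). The comparisons with and without Wnt3a share no arrays.

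**Figure D4:**
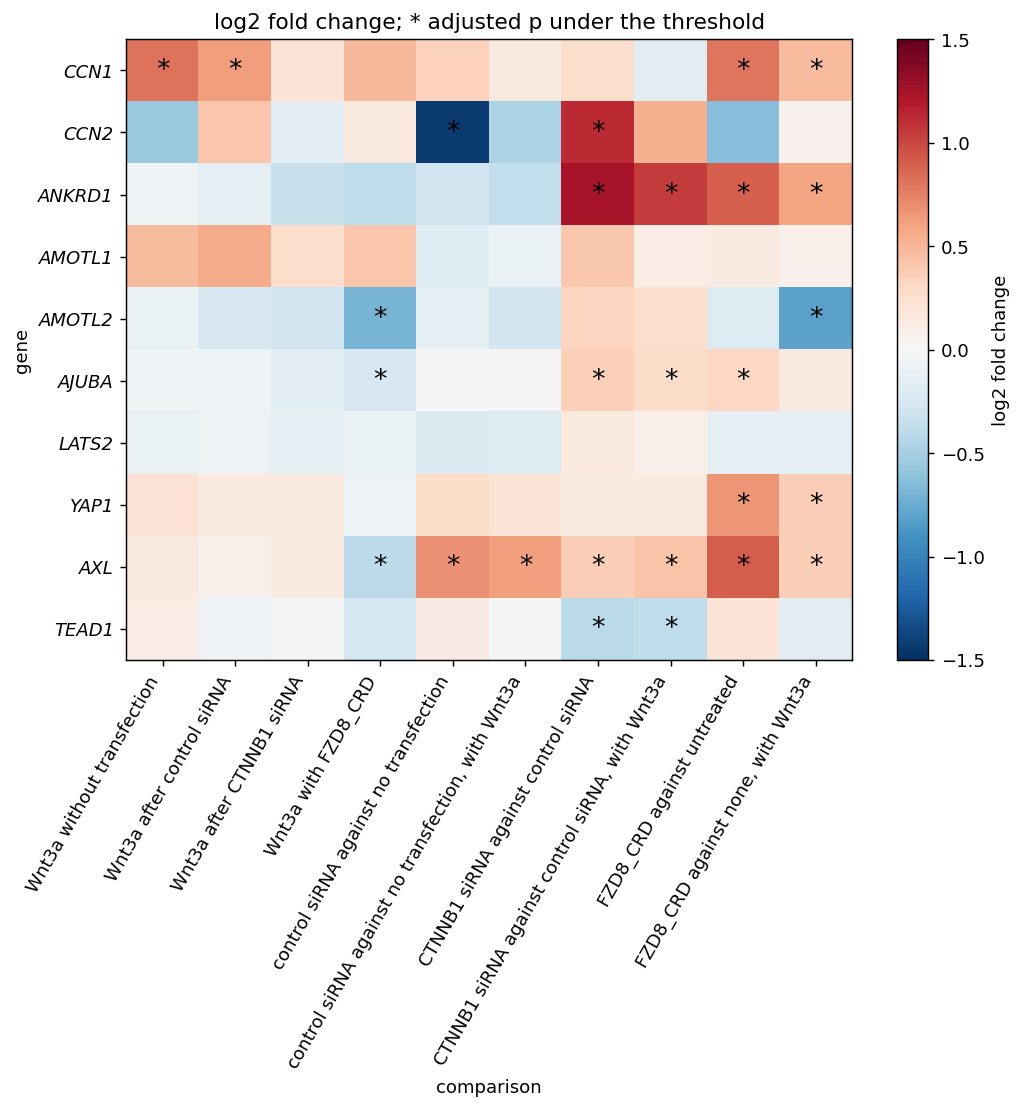
Log2 fold change (colour) of each gene (vertical axis) in the 10 comparisons of conditions (horizontal axis), with an asterisk where the limma adjusted p is under 0.05. ANKRD1 is called higher in both CTNNB1 siRNA comparisons and in both FZD8_CRD comparisons.

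The control siRNA itself, set against cells that were not electroporated, was a large change. Without Wnt3a, 22.4% of all genes were called and 2 of the 10: CCN2 fell by 1.44 ± 0.26 on the log2 scale (limma, adjusted p = 0.000771), by 2.29, 1.45 and 0.58 on the 3 slides, and AXL rose by 0.69 ± 0.11 (adjusted p = 0.00027), by 0.73, 0.66 and 0.69. YAP1, at 0.27 (adjusted p = 0.0606), was called with the replicate number as a block (adjusted p = 0.0128). Without the third untreated array ANKRD1 was called lower, at -0.55 (adjusted p = 0.0137, with it -0.30 and 0.27). With each single array left out in turn, ANKRD1 lay between -0.55 and -0.07 (limma, adjusted p up to 0.868). Over the fits without an array or a replicate number, 1.08 to 27.5% of all genes were called, and the share in each fit is not given. The joint setting called 6 of the 10, and 36.5% of all genes, with CCN1 (0.34, adjusted p = 0.0392) and YAP1 (0.27, 0.00692) higher and LATS2 (-0.22, 0.0131) and AMOTL2 (-0.15, 0.0456) lower beside the first 2. AXL was at 0.41 with spike-in scaling (adjusted p = 0.378). With Wnt3a, AXL alone was called, at 0.62 ± 0.11 (adjusted p = 0.00345, slides 0.63, 0.41 and 0.83), where 8.87% of all genes were. CCN1 (0.40, adjusted p = 0.0356) and YAP1 (0.31, adjusted p = 0.0432) were called too without the second Wnt3a array (with it 0.15 and 0.20). Over all fits without a single array, CCN1 lay between 0.03 and 0.40 and YAP1 between 0.09 and 0.31 (limma, adjusted p up to 0.97 and 0.669). The share of all genes called was 0.00406 to 16.1% over the fits without an array or a replicate number. For control siRNA with Wnt3a the joint setting called 3, and 19.9% of all genes, with AMOTL2 (-0.29, adjusted p = 0.00268) and LATS2 (-0.20, 0.0384) lower beside AXL. The medians of the 10 were -0.06 and -0.07, against -0.032 and -0.024. Electroporation and control siRNA cannot be told apart in these comparisons. The untreated arrays serve this comparison, that of Wnt3a without transfection and that of FZD8_CRD alike, so these comparisons are not independent. All 9 hepatocyte markers fell with control siRNA (median -1.65), 4 of them lost without some single array (adjusted p up to 0.245), and 6 of the 9 in the presence of Wnt3a (median -1.32), where 5 were so lost (adjusted p up to 0.154). Of the 5 mesenchymal markers, 1 rose and 2 fell (median -0.57), and with Wnt3a 2 fell (median -0.30), 1 of the calls in each lost without some single array (adjusted p up to 0.0698). The part of either list was not tested.

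FZD8_CRD alone raised 5 of the 10 genes and lowered none, where it raised 19.8% of all genes and lowered 22%, 41.9% in all. AXL rose by 0.91 ± 0.11 (limma, adjusted p = 3e-06), ANKRD1 by 0.90 ± 0.18 (adjusted p = 0.000433), CCN1 by 0.80 ± 0.16 (adjusted p = 0.000361), YAP1 by 0.66 ± 0.10 (adjusted p = 3e-05) and AJUBA by 0.31 ± 0.07 (adjusted p = 0.00102). The slides gave 0.95, 0.97 and 0.82 for AXL, 0.57, 1.00 and 1.13 for ANKRD1, 0.44, 0.64 and 1.32 for CCN1, 0.61, 0.68 and 0.70 for YAP1 and 0.42, 0.32 and 0.20 for AJUBA. The groups did not overlap for any of these 5, which were picked by their adjusted p, and the share of all genes that separate so was not counted. Without the third FZD8_CRD array 6 were called, with TEAD1 added at 0.38 (adjusted p = 0.00427, with it 0.21 and 0.168), and 40.6% of all genes. Without the third untreated array CCN2 was called lower, at -1.12 (adjusted p = 4.73e-05, with it -0.64 and 0.0601). With each single array left out in turn, CCN2 lay between -1.12 and -0.22 and TEAD1 between 0.08 and 0.38 (limma, adjusted p up to 0.479 and 0.663). Over the fits without an array or a replicate number, 25.1 to 45.4% of all genes were called. The median of the 10 was 0.26, against -0.082 (0.39 and -0.085 without the third FZD8_CRD array). With spike-in scaling none of these 5 was called: AXL was at 0.52 (adjusted p = 0.145), ANKRD1 at 0.51 (0.214), CCN1 at 0.41 (0.264) and YAP1 at 0.27 (0.419), and AJUBA changed sign, to -0.08 (0.838).

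With Wnt3a present in both arms, FZD8_CRD raised CCN1, ANKRD1, YAP1 and AXL and lowered AMOTL2, 5 of 10 where 37.2% of all genes were called. AMOTL2 fell by 0.80 ± 0.15 on the log2 scale (limma, adjusted p = 0.000285, slides -0.89, -0.66 and -0.86). ANKRD1 rose by 0.59 ± 0.18 (adjusted p = 0.0128), CCN1 by 0.48 ± 0.16 (adjusted p = 0.0207), AXL by 0.37 ± 0.11 (adjusted p = 0.0108) and YAP1 by 0.37 ± 0.10 (adjusted p = 0.00689). The groups overlapped for CCN1, which differed by 0.79, -0.02 and 0.66 on the 3 slides, and for AXL (0.53, 0.10 and 0.48). CCN1 was lost without the first or the third Wnt3a array or the first with FZD8_CRD and Wnt3a (adjusted p = 0.126, 0.11 and 0.0678), ANKRD1 without the first Wnt3a array (0.0581), AXL without the first or the third (0.0616 and 0.0699), and YAP1 without the third (0.0509) or without the second with FZD8_CRD and Wnt3a (0.05). The median of the 10 was 0.11, against -0.078. The fit without the third FZD8_CRD array, which is in neither arm, also called 5, and 39.6% of all genes, and the joint setting 7, and 51.6%, with AJUBA higher (0.14, adjusted p = 0.0499) and TEAD1 lower (-0.17, 0.0485). The FZD8_CRD comparisons moved the hepatocyte markers as well, 9 of 9 lower without Wnt3a (median -1.97) and 6 of 9 lower with it (median -1.07), with 9 lower, and 1 higher and 6 lower, without the third FZD8_CRD array. With all arrays, 1 of the 9 calls and 2 of the 6 were lost without some single array (adjusted p up to 0.0853). Of the 5 mesenchymal markers, 1 rose and 2 fell without Wnt3a (median -0.01) and 1 rose and 3 fell with it (median -1.43). The counts without the third FZD8_CRD array were 2 higher and 2 lower, and 2 and 3. Their part was not tested.

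Other genes of the pathway were followed as lists, whose counts stand against the shares of all genes called in the same comparisons. Those were 5.42% for Wnt3a without transfection, 2.02% for it after control siRNA, 0.0406% after CTNNB1 siRNA and 8.24% with FZD8_CRD, 22.4% for control siRNA and 8.87% with Wnt3a, 10.5% for CTNNB1 siRNA and 10.6% with Wnt3a, and 41.9% for FZD8_CRD and 37.2% with Wnt3a. They were, without the third FZD8_CRD array, 19.9% for Wnt3a with FZD8_CRD, 40.6% for FZD8_CRD and 39.6% for it with Wnt3a. Of 15 other YAP/TAZ targets tested (of 16, without CRIM1), CTNNB1 siRNA raised IGFBP3 (0.63) and PTPN14 (0.50) and lowered ARHGEF17 (-0.67), F3 (-0.87) and TGFB2 (-0.68), with a median of 0.00. The calls of F3 and TGFB2 were lost without some single array (adjusted p up to 0.126). In the presence of Wnt3a the same 5 were called in the same directions, at 0.86, 0.48, -0.70, -1.23 and -0.83, with ASAP1 lower (-0.62, lost without some single array, adjusted p up to 0.0592), and the median was -0.03. Wnt3a without transfection raised 3, CCDC80 (1.10), F3 (1.11) and TGFB2 (0.93), and after either siRNA none. Each of these 3 calls was lost without some single array, with adjusted p up to 0.273. Control siRNA raised CCDC80 (1.08), NT5E (0.96), TGFB2 (0.62) and ARHGEF17 (0.29) and lowered IGFBP3 (-0.55), and with Wnt3a it raised NT5E (1.03) and CCDC80 (0.98) and lowered IGFBP3 (-0.80). Of these 8 calls only NT5E without Wnt3a and IGFBP3 with it held without every single array. FZD8_CRD raised 8 and lowered 1, with the largest changes in CCDC80 (1.71), NT5E (1.07), TGFB2 (0.84) and FOXF2 (0.81), and with Wnt3a it raised 5 and lowered 3, with CCDC80 (1.76), NT5E (1.64), RBMS3 (-0.81) and FOXF2 (0.80) the largest. Of the 9 calls 4 were lost without some single array (adjusted p up to 0.244), and of the 8 calls 1 (up to 0.157), none of them among the genes just named. With FZD8_CRD present, Wnt3a raised 5 and lowered 2, with the largest changes in F3 (1.24), CCDC80 (1.14), NT5E (0.88) and FJX1 (-0.75), and none of these 7 calls held without every single array. The counts without the third FZD8_CRD array were 7 higher and 1 lower for FZD8_CRD, 5 and 5 with Wnt3a, and 5 and 3 for Wnt3a with FZD8_CRD.

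Among 14 Hippo kinases and regulators tested (of 15, without AMOT), Wnt3a changed none without transfection or after either siRNA and lowered WWC1 with FZD8_CRD (-0.78, lost without some single array, adjusted p up to 0.0808). That comparison had, without the third FZD8_CRD array, 5 lower and none higher, WWC1 (-1.01), SCRIB (-0.48), MAP4K4 (-0.46), SAV1 (-0.28) and STK3 (-0.22). Control siRNA raised MOB1A (0.37) and lowered WWC1 (-0.54 and, with Wnt3a, -0.67, both lost without some single array, adjusted p up to 0.126). CTNNB1 siRNA lowered MOB1A, the LATS activator (-0.53), and with Wnt3a it lowered MOB1A (-0.32) and WWC1 (-0.57), both of which were lost without some single array (adjusted p up to 0.142). FZD8_CRD raised FRMD6 (0.76), NF2 (0.69) and STK3 (0.18, lost without some arrays, adjusted p up to 0.172) and lowered WWC1 (-0.72). With Wnt3a it raised FRMD6 (0.70), NF2 (0.70) and STK3 (0.25) and lowered WWC1 (-1.12), TAOK2 (-0.35) and STK4 (-0.18), with STK3 and STK4 lost without some single array (adjusted p up to 0.107). Of 7 partners tested (of 8, without VGLL1), WWTR1, the gene of TAZ, fell after CTNNB1 siRNA by 0.39 (lost without any 1 of the 6 arrays, adjusted p up to 0.125) and in the presence of Wnt3a by 0.61, and VGLL4 rose after CTNNB1 siRNA (0.48) and fell with control siRNA (-0.52). FZD8_CRD raised TEAD4 (0.55) and VGLL3 (0.75), and with FZD8_CRD present Wnt3a lowered VGLL3 (-0.71, lost without some single array, adjusted p up to 0.258). The kinases and regulators without the third FZD8_CRD array counted 6 higher and 1 lower for FZD8_CRD, and 3 and 4 with Wnt3a. The partners then counted 2 higher for FZD8_CRD (VGLL3 at 1.15), 1 higher and 1 lower with Wnt3a, where none was called with the array, and TEAD2 higher (0.80) and VGLL3 lower (-1.11) for Wnt3a with FZD8_CRD.

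Of 9 relatives of the genes (of 11, without CCN4 and CCN6), Wnt3a raised CCN3 (0.66) and lowered ANKRD2 (-1.57) without transfection, both lost without some single array (adjusted p up to 0.329), changed none after either siRNA and lowered ANKRD2 with FZD8_CRD (-2.52). Control siRNA raised CCN3 (1.23) and WTIP (0.41) and lowered MERTK (-1.09), LIMD1 (-0.39) and ANKRD23 (-0.35), and with Wnt3a it raised CCN3 (0.91) and lowered CCN5 (-1.03) and LIMD1 (-0.45). Of these 8 calls the CCN3 calls alone held without every single array. CTNNB1 siRNA lowered CCN3 (-0.64), and with Wnt3a it lowered CCN3 (-0.60) and raised CCN5 (1.10) and MERTK (1.04), each of the 4 lost without some single array (adjusted p up to 0.17). FZD8_CRD raised 4 of the 9 and lowered 3, with the largest changes in CCN5 (-1.66), CCN3 (1.06), GAS6, the ligand of AXL (0.81), and WTIP (0.79). With Wnt3a it raised CCN3 (0.88) and WTIP (0.48) and lowered ANKRD2 (-1.46), CCN5 (-1.0) and ANKRD23 (-0.53), with ANKRD2 and CCN5 lost without some single array (adjusted p up to 0.0795). The counts without the third FZD8_CRD array were 4 higher and 2 lower for FZD8_CRD, 2 and 3 with Wnt3a, and, for Wnt3a with FZD8_CRD, CCN3 higher (0.53) and ANKRD2 (-3.28) and GAS6 (-0.89) lower.

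Lists of other programmes moved in the same comparisons, and their part in the results on the 10 genes was not tested. Of the Wnt feedback targets, 7 were well above background on all arrays. NKD1 passed the filter only through control siRNA with Wnt3a and is not counted, nor are COL1A2 and PDGFRB among the mesenchymal markers, which were not well above background on every array. Wnt3a raised 4 of the 7 without transfection (median 0.37) and 4 after control siRNA (median 0.60), TCF7 (1.69 and 1.40), LEF1 (1.13 and 0.61), RNF43 (0.74 and 1.03) and AXIN2 (0.37 and 0.60), and none after CTNNB1 siRNA. Of these 8 calls, AXIN2 without transfection (adjusted p up to 0.112) and all but RNF43 after control siRNA (up to 0.154) were lost without some single array. With FZD8_CRD it raised 2 and lowered 1 (median 0.14). CTNNB1 siRNA itself lowered 5 (median -0.60) and, with Wnt3a, 5 (median -0.74). Control siRNA raised 1 and lowered 1, and with Wnt3a none was called. FZD8_CRD raised 2 and lowered 3 (median 0.13) and, with Wnt3a, lowered 3 (median -0.06). For RNF43 the loss of response after CTNNB1 siRNA was called as a difference, at -1.23 (limma, adjusted p = 0.00188). When the third FZD8_CRD array was left out, the count for FZD8_CRD was 2 higher and 2 lower (median -0.25), and for Wnt3a with FZD8_CRD the median was 0.01, with the same count.

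Of 10 SRF/MRTF targets, which report actin dynamics, Wnt3a raised 5 without transfection (median 0.47), none after control siRNA (median 0.42) or CTNNB1 siRNA (median 0.11) and 6 with FZD8_CRD (median 0.69). Of the 5 calls 1 held without every single array (adjusted p up to 0.13), and of the 6 calls 3 held (up to 0.217). Control siRNA raised 4 and lowered 1 (median 0.26) and, with Wnt3a, raised 1 (median 0.16). CTNNB1 siRNA lowered 3 (median -0.29), of which 1 held without every single array (adjusted p up to 0.161), and, with Wnt3a, 4 (median -0.46). FZD8_CRD raised 6 and lowered 1 (median 0.60) and, with Wnt3a, the same numbers (median 0.64). When the third FZD8_CRD array was left out, Wnt3a raised 8 with FZD8_CRD (median 0.85), and FZD8_CRD raised 6 and lowered 2 (median 0.37) and, with Wnt3a, raised 7 and lowered 1. After control siRNA, Wnt3a raised 2 of the 5 mesenchymal markers (median 0.67, 1 of them lost without some single array, adjusted p up to 0.129), and none after CTNNB1 siRNA (median 0.10).

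Of 8 interferon-stimulated genes, CTNNB1 siRNA lowered 4 (median -0.41) and, with Wnt3a, 4 (median -0.30), and FZD8_CRD lowered 5 (median -0.51) and, with Wnt3a, raised 1 and lowered 3 (median -0.17). Control siRNA raised 2 and lowered 1 (median -0.04) and, with Wnt3a, raised 1. Wnt3a lowered 1 without transfection and raised 1 in each other condition, and these 4 calls were lost without some single array (adjusted p up to 0.241). The counts without the third FZD8_CRD array were 4 lower for FZD8_CRD (median -0.43), 1 higher and 3 lower with Wnt3a, and 3 and 2 for Wnt3a with FZD8_CRD. Of 4 biliary markers, SPP1 rose after CTNNB1 siRNA (0.93 and, with Wnt3a, 0.82) and fell with Wnt3a (-0.74), with control siRNA (-1.06 and -0.89) and with FZD8_CRD (-1.36 and -0.85). SOX9 fell with FZD8_CRD (-0.53 and -0.75) and after CTNNB1 siRNA with Wnt3a (-0.57), and KRT19 rose with FZD8_CRD (0.37 and 0.59). SPP1 for Wnt3a and in both siRNA comparisons with Wnt3a, SOX9 after CTNNB1 siRNA with Wnt3a, and SOX9 and KRT19 for FZD8_CRD without Wnt3a were lost without some single array (adjusted p up to 0.322), the last 2 without the third FZD8_CRD array among others. That array left out, 1 biliary marker was higher and 1 lower for Wnt3a with FZD8_CRD. Of the 5 blood and endothelial markers PECAM1 alone fell after CTNNB1 siRNA (-0.94, lost without some single array, adjusted p up to 0.144), 1 fell with FZD8_CRD, and 1 rose for Wnt3a with FZD8_CRD. Of all 270 calls counted in these lists, 157 held without every single array of their comparison. The difference between the responses to Wnt3a with and without FZD8_CRD was called for no gene of these lists but LUM, a mesenchymal marker (-1.42, adjusted p = 0.0477, lost without some single array). The fit without the third FZD8_CRD array called it for FJX1 (-1.13), NUAK2 (-0.74) and MYOF (-0.35) of the other targets, MAP4K4 (-0.58) and WWC1 (-0.64) of the regulators, VGLL3 (-1.41) of the partners, and ANKRD2 (-1.72) and GAS6 (-1.37) of the relatives. It was then higher for 3 SRF/MRTF targets, 3 hepatocyte markers, 1 mesenchymal marker and 1 blood or endothelial marker, and lower for 2 Wnt feedback targets, 1 hepatocyte marker and 2 mesenchymal markers. In that fit the difference was called for 7.77% of all genes, against 0.073% with all arrays.

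The genes did not move as a block. Over the 24 arrays, as a description that includes the differences between conditions, Pearson's r was 0.84 between ANKRD1 and AJUBA, 0.73 between CCN1 and YAP1 and between YAP1 and AXL, and -0.62 between CCN1 and AMOTL2. The 3 genes outside the set with the most similar profile over the 24 arrays were PHLDB1, PPP1R18 and NOL4L for CCN1 (each 0.938) and PID1 (0.91), RAI2 (0.883) and VGLL4 (0.879) for CCN2, and for ANKRD1 they included SPOPL (0.90) and PRRG4 (0.874). For AMOTL1 they were SLC38A5 (0.822), SSTR3 (0.818) and TMEM95 (0.801), and for AMOTL2 CITED2 (0.938), JPH2 (0.935) and SHISA9 (0.93). AJUBA was closest to CLIP1 (0.911), ACAD9 (0.911) and MAP3K3 (0.895), and LATS2 to DNAJC1 (0.923), ZNG1E (0.841) and CAMKK2 (0.83). YAP1 was closest to TRMT5 (0.942), CDK2 (0.939) and CAPZA1 (0.938), AXL to CDKN2C (0.959), MXD3 (0.954) and CDC25C (0.949), and TEAD1 to SMIM29 (0.912), KIAA1549 (0.901) and SRGN (0.885).

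Several calls also depended on the processing. With the deposited values, CCN1 for Wnt3a with FZD8_CRD (limma, adjusted p = 0.032) was added, and AJUBA for Wnt3a with FZD8_CRD (0.0725) and TEAD1 for CTNNB1 siRNA with Wnt3a (0.052) were lost. With another background correction, the same and TEAD1 for CTNNB1 siRNA (0.0524) were lost. Without the filter on low signals, CCN1 for Wnt3a after control siRNA (0.0939) and for FZD8_CRD with Wnt3a (0.051), AXL for Wnt3a with FZD8_CRD (0.0645) and for CTNNB1 siRNA (0.0721), and TEAD1 in both CTNNB1 siRNA comparisons (0.0697 and 0.0849) were lost. A fit of only the conditions compared, with fewer arrays to estimate the spread, lost 10 of the 27 calls, among them CCN1 for Wnt3a without transfection (0.46) and CCN2 for control siRNA (0.0692), and kept both ANKRD1 calls after CTNNB1 siRNA. It added AMOTL2, higher for CTNNB1 siRNA (0.00553), and YAP1 for control siRNA (0.0464). Without moderation, CCN1 for Wnt3a after control siRNA (0.0676) and TEAD1 for CTNNB1 siRNA with Wnt3a (0.0595) were lost. Quantile normalization added CCN1 for Wnt3a with FZD8_CRD (0.0288) and CCN2 for FZD8_CRD (0.0451). Every call but that of AJUBA with FZD8_CRD kept its direction in every alternative.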

How the data were processed

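RNA of 24 HepaRG cultures was hybridized to one-colour Agilent arrays. The deposited scanner files hold the intensity of each spot as the authors' Feature Extraction wrote it. The deposited table holds log2 values, which the authors scaled to the 75th percentile and centred on the median of each probe, and it was used as an alternative only. From the intensity of 61657 spots, the mean of each of 50683 probes was divided by the 75th percentile of its array and put on a log2 scale with a floor of -6.13. A probe was kept (31061) when it was well above background on the 3 arrays of some condition, and the brightest probe stood for its gene (24643 genes). Each array had 58.3 to 66.5% of its spots well above background.

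Limma 3.58.1 (R 4.3.3, trended moderation) was fitted once to all 24 arrays with 8 condition means, for 10 comparisons and 3 differences between responses. P-values are two-sided and were adjusted over all genes tested by Benjamini-Hochberg, with a call at an adjusted p under 0.05. Alternatives were quantile normalization, the deposited values, spike-in scaling, another background correction, other filters and floors, the mean of the probes, a fit of only the conditions compared, no moderation, the study's own threshold, a replicate block and leaving out arrays.

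The replicate number, which is the slide, was checked for pairing. The mean correlation of the deviations from each condition's mean was 0.38 for same-numbered arrays and -0.19 for others, with 82 of 84 same-number pairs over 0.1. The value for others follows from the first through the centring on each condition and is not a separate test. Every pair was over 0.1 in each comparison of conditions except Wnt3a without transfection, where the lowest was -0.06.

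The 10 genes and the lists (other YAP/TAZ targets, Hippo kinases and regulators, YAP/TAZ partners, relatives, SRF/MRTF targets, Wnt feedback targets, interferon-stimulated genes and 4 marker lists) were chosen with earlier results of these data known. Named are the 10 genes, CTNNB1, called genes of the lists (of more than 6, the 4 with the largest change) and the 3 most similar genes of each, 1 of which is not reported here. Of the lists beyond the pathway only examples of the called genes are named. Figures were drawn with matplotlib.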

Additional observations from a re-analysis of the deposited data

How the results depend on the processing

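Of the 27 calls on the 10 genes, 26 kept their direction in every alternative, 14 were kept without every single array and 7 without every replicate number. Spike-in scaling kept 2. All 27 were kept with quantile normalization, a floor of 1 unit, averaged probes and a filter on all 24 arrays. Where a setting moved a count of genes called by more than 1.5 times, the cause was not tested.

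With spike-in scaling, 1 gene was called for control siRNA (6.62% of all genes in the same fit), 1 for CTNNB1 siRNA (0.763%) and 1 for FZD8_CRD without Wnt3a (30.0%). None was called for Wnt3a without transfection (1.22%), after control siRNA (0.235%), after CTNNB1 siRNA (0%) or with FZD8_CRD (0.998%), or, with Wnt3a, for control siRNA (0.905%), CTNNB1 siRNA (2.61%) or FZD8_CRD (9.40%). AJUBA with FZD8_CRD reversed there, to -0.08. In a fit of only the conditions compared, with fewer arrays, 0 genes were called for Wnt3a without transfection (0.00812% of all genes), 0 for Wnt3a with FZD8_CRD (0%), 0 for control siRNA with Wnt3a (0.00406%) and 2 for FZD8_CRD with Wnt3a (27.0%). Without the filter 3 were called for CTNNB1 siRNA (5.16%) and 0 for Wnt3a after control siRNA (0.667%), and without moderation 0 for the latter (1.77%). The study's threshold (unadjusted p under 0.01 and a fold change above 1.5 or below 0.7) gave 2 for CTNNB1 siRNA (5.70%), 1 for it with Wnt3a (6.51%), 2 for FZD8_CRD with Wnt3a (18.9%), 1 for Wnt3a with FZD8_CRD (5.74%) and 1 for the difference between the responses with and without FZD8_CRD (2.99%).

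The replicate block added CCN1 for Wnt3a with FZD8_CRD and YAP1 for control siRNA, and changed no other call. The share of all genes called in that fit is not given here, so the 2 added calls are not set against it. The block without the third FZD8_CRD array, chosen after the data were seen, gave 8 for Wnt3a with FZD8_CRD (27.2% of all genes), 6 for FZD8_CRD (51.6%) and 3 for the difference between responses (13.5%). In comparisons that do not use that array it gave 7 for FZD8_CRD with Wnt3a (51.6%), 2 for Wnt3a without transfection (17.2%), 3 for it after control siRNA (8.94%), 1 after CTNNB1 siRNA (2.18%), 6 for control siRNA (36.5%), 3 with Wnt3a (19.9%), 6 for CTNNB1 siRNA (20.8%) and 5 with Wnt3a (19.4%).

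Leaving out arrays or replicate numbers gave 0 to 3 genes for Wnt3a without transfection (0.069 to 25.4% of all genes over the same fits), 0 for Wnt3a after control siRNA (0.0162 to 2.36%), 0 to 5 for Wnt3a with FZD8_CRD (0 to 21.2%), 0 to 6 for control siRNA (1.08 to 27.5%), 0 to 3 for it with Wnt3a (0.00406 to 16.1%), 1 to 5 for CTNNB1 siRNA (1.98 to 9.31%), 1 to 4 for it with Wnt3a (2.39 to 10.5%), 4 to 7 for FZD8_CRD (25.1 to 45.4%), 1 to 5 for it with Wnt3a (16.6 to 40.9%) and 0 to 4 for the difference between responses (0 to 11.8%). None of the 10 was called in such fits for Wnt3a after CTNNB1 siRNA (0 to 0.438% of all genes). Nor was any for the response after control siRNA minus that without transfection (0 to 0.00406%). The same held for the response after CTNNB1 siRNA minus control siRNA (0 to 0.0446%). Where a replicate number is left out, each condition keeps 2 arrays.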
